A study of Mus musculus with 6 samples.

Results

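Guanylate cyclase C, encoded by Gucy2c, was described together with its peptides guanylin (Guca2a) and uroguanylin (Guca2b) and with 7 genes that make, read or break down the same second messenger, cyclic GMP. Those 7 are the natriuretic peptide receptors Npr1 and Npr2, the soluble guanylate cyclase subunits Gucy1a3 and Gucy1b3, the cGMP-dependent protein kinases Prkg1 and Prkg2, and the phosphodiesterase Pde5a. The 10 genes were each linked by their exon and intron structure to a locus among the 39470 loci of the deposited count table. Loci that share over 90% of exonic bases with others were to be skipped, and none was, the largest share being 56.0% for Prkg1. Gucy2c was chosen by its log2 fold change between the diets in earlier results of these same libraries, so its values are given as a description with no test, and the other 9 genes were chosen by their known place around it.

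RNA was sequenced from pancreatic islets, small groups of endocrine cells, of C57BL/6 mice, an inbred laboratory strain. Mice were fed for 8 weeks, on either a high fat or a normal diet, and killed at 14 weeks of age, and each diet had 3 libraries. Nothing in the labels says that the libraries of a diet came from different animals or from pools, and a p-value here measures spread among libraries that may be technical. The count table names the diets by abbreviations, and reading HDR as the high fat diet is an inference from the names on which every direction given here depends. Libraries held between 104657337 and 135353777 counted reads. Levels are read counts scaled to library size (CPM) after TMM normalisation, which corrects the sizes for composition, and are divided by exon length in kilobases (kb) wherever genes are compared with each other.

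Guanylate cyclase C is a receptor of the cell surface with a peptide-binding part outside and a cyclase part inside that converts GTP to cyclic GMP. It is known best from the intestinal epithelium, where guanylin and uroguanylin set fluid secretion through it and where bacterial heat-stable enterotoxin binds it. Natriuretic peptides and nitric oxide raise the same messenger through other cyclases, cGMP-dependent kinases and cyclic nucleotide-gated channels respond to it, and phosphodiesterases remove it.

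The receptor gene Gucy2c was the second most abundant of the 10 genes per length on either diet and was higher in high fat islets. Its counts were 16498, 16388 and 16386 reads in the high fat libraries, against 5255, 5153 and 4968 reads in the normal diet libraries. Scaled for library size, these were 146, 170 and 126 CPM in high fat islets and 42.1, 47.0 and 34.8 CPM in normal diet islets. The diets did not overlap, and the lowest high fat library lay above the highest normal diet library. The means were 147 ± 21.7 CPM in high fat and 41.3 ± 6.1 CPM in normal diet islets (SD, n = 3 each). On the log2 scale the difference was 1.83 (SE 0.14, 95% interval 1.51 to 2.16), or 3.57-fold. The gene was chosen by this difference, so the interval does not allow for that choice and is not a test. Ordered by log2 fold change, Gucy2c stood in place 6 of the 14821 tested loci with a mean of at least 1 CPM. Per kb of exon its level exceeded that of 89.7% of 13693 tested coding loci in high fat islets and 69.5% in normal diet islets. In bulk RNA, more or fewer cells of a type and more or less RNA per cell cannot be told apart.

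The Gucy2c locus lies at chr6:136645805-136730263 on the minus strand of mouse build mm9, the build of the deposited coordinates. It holds 27 exons with 3936 bases in all and 2 transcripts, both of which are UCSC known genes. It shared 0% of its exonic bases. Within 50 kb there were 6 further loci, namely Plbd1, BC049715, Wbp11, Smco3 and the unnamed single-exon loci XLOC_029093 and XLOC_029885. None of the 6 passed the test, their log2 fold changes ran from -0.35 to 0.14, and the diets overlapped at each of them.

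The peptides of the receptor were close to the limit of detection. Guca2a had 0, 0 and 0 reads in the high fat libraries and 2, 3 and 8 reads in the normal diet libraries. A count of 0 allows up to 3 reads, which is 0.0265, 0.0311 and 0.0231 CPM in high fat libraries 1, 2 and 3, against measured levels of 0.016, 0.027 and 0.056 CPM in the normal diet libraries. With 3 reads as the floor over the whole high fat group, Guca2a was under 0.00884 CPM there, against 0.0345 CPM over the normal diet group. With the 13 normal diet reads taken as exact, Guca2a was thus at least 3.90-fold lower in the high fat group. That fold covers the counting error of the 0 alone, not that of the 13 reads. It was not tested against the spread between libraries, and 8 of the 13 reads are in normal diet library 3. Guca2b had 0 reads in each high fat library and 0, 0 and 2 reads in the normal diet libraries, so that no fold is given. Neither gene passed the filter on low counts. The receptor thus had 64648 reads over the 6 libraries, and its peptides had 13 and 2.

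The peptide genes are neighbours on chromosome 4, with Guca2a at chr4:119310337-119312070 on the plus strand (3 exons, 560 bases) and Guca2b at chr4:119329208-119331550 on the minus strand (600 bases of exon) of mm9. Since a pair of neighbouring genes was at or near 0, the 250 bases before each start are shown, from RefSeq on another build, GRCm38.p6, at chr4:119637482-119637731 and chr4:119658946-119659195. Capitals mark motifs searched on either strand.
Guca2a promoter: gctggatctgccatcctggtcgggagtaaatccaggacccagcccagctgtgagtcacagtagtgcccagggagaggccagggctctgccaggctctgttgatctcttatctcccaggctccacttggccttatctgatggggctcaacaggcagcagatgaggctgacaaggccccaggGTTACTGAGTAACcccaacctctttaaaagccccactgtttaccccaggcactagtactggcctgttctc
Guca2b promoter: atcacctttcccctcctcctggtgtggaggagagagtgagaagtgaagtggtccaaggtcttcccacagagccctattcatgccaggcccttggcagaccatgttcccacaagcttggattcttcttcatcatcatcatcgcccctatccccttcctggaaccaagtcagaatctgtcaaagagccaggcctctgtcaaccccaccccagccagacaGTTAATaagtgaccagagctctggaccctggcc
The capitals in Guca2a match the palindrome read by HNF1 factors, homeodomain proteins of liver, gut, kidney and pancreas, searched as GTTANT, any base and the reverse complement of GTTANT. The match GTTACTGAGTAAC begins 70 bases before the start, and 13 of 32851 mouse promoters of the same length hold such a match (0.0396%). In Guca2b the capitals mark GTTAAT, an arm of that palindrome, 33 bases before the start, which 6.43% of promoters hold. TATAA, held by 22.8% of promoters, was found in neither. The motifs were chosen after these promoters had been read, and a match is a description of letters, not a site.

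**Figure D1:**
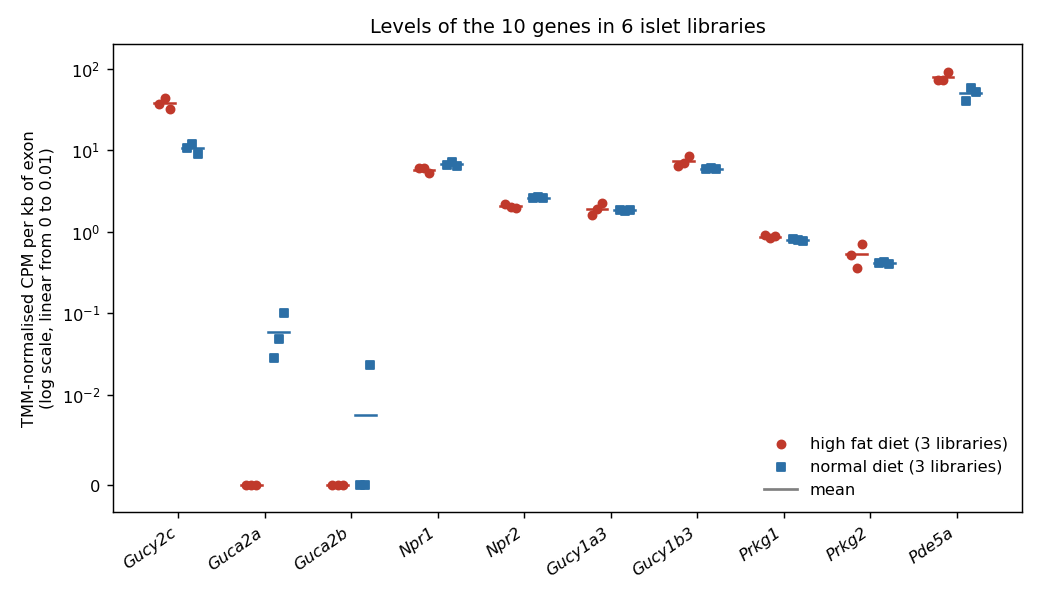
Levels of the 10 genes per kb of exon in each library (TMM-normalised CPM per kb, log scale that is linear from 0 to 0.01), with high fat libraries as circles left of normal diet libraries as squares and a bar at each mean. Gucy2c sits at 37.4 CPM per kb in high fat and 10.5 CPM per kb in normal diet islets, while Guca2a and Guca2b are at 0 in every high fat library.

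Besides Gucy2c, 7 of the other 9 genes passed the filter on low counts. By the quasi-likelihood test of edgeR, with p-values adjusted over 23983 loci by the Benjamini-Hochberg method, 1 of the 7 was higher in high fat islets (Pde5a), where 5.95% of all loci tested were higher, and 1 was lower (Npr2), where 4.86% of all loci were lower. In either direction 10.8% of loci passed. The diets did not overlap for 5 of the 7 (Pde5a, Gucy1b3, Prkg1, Npr1 and Npr2), against 39.2% of all loci tested (18.8% with every high fat library above and 20.4% with every one below). The median log2 fold change of the 7 was 0.14 and that of all loci tested was -0.05.

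The 2 receptors for natriuretic peptides were lower or not called. Npr2, the receptor for C-type natriuretic peptide, was at 20.3, 18.8 and 18.3 CPM in high fat libraries and at 24.1, 24.7 and 24.1 CPM in normal diet libraries. Every high fat library was below every normal diet library. The means were 19.1 ± 1.0 CPM in high fat and 24.3 ± 0.36 CPM in normal diet islets (SD, n = 3 each), which differed by -0.35 on the log2 scale (SE 0.093, 95% interval -0.56 to -0.14; edgeR adjusted p = 0.048). The call held in 3 of 15 other settings, with adjusted p-values from 0.020 to 0.41 and log2 fold changes from -0.41 to -0.31. Of the fits that left out a library, only that without high fat library 3 called it. Npr2 lies at chr4:43644384-43669352 on the plus strand of mm9, and 23.0% of its 9398 exonic bases also belong to another locus.

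Npr1, the receptor for atrial and B-type natriuretic peptides, was at 31.4, 31.6 and 26.9 CPM in high fat libraries and at 34.1, 37.2 and 32.7 CPM in normal diet libraries. These values did not overlap either, but the difference did not pass the test (log2 fold change -0.21, SE 0.10, 95% interval -0.44 to 0.02, edgeR adjusted p = 0.20). Npr1 lies at chr3:90254513-90271292 on the minus strand of mm9. Per length, Gucy2c was 6.46 ± 0.54 times Npr1 in high fat islets and 1.57 ± 0.14 times Npr1 in normal diet islets (SD, n = 3 each). Npr3, the natriuretic peptide receptor that has no cyclase part and clears its ligands, averaged 2.49 CPM in high fat and 1.67 CPM in normal diet islets and did not pass the test (edgeR adjusted p = 0.068).

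Soluble guanylate cyclase, the intracellular receptor for nitric oxide, is a dimer of an alpha and a beta subunit. The beta subunit gene Gucy1b3 was at 20.8, 22.6 and 27.4 CPM in high fat libraries and at 19.3, 19.7 and 19.0 CPM in normal diet libraries. The high fat libraries were all above the normal diet libraries, and the difference did not pass the test (log2 fold change 0.29, SE 0.12, 95% interval 0.02 to 0.56, edgeR adjusted p = 0.14). The alpha subunit gene Gucy1a3 was at 10.2, 12.4 and 14.4 CPM in high fat libraries and at 11.9, 11.6 and 11.8 CPM in normal diet libraries. Its diets overlapped (log2 fold change 0.07, SE 0.14, 95% interval -0.25 to 0.38, edgeR adjusted p = 0.78), and its sign turned in 2 of 15 other settings. The spread was wider among high fat than among normal diet libraries for either subunit, with SDs of 3.4 and 0.37 CPM for Gucy1b3 and of 2.1 and 0.13 CPM for Gucy1a3. High fat library 3 was the highest library for both.

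The subunit genes lie next to each other on the minus strand of mm9, Gucy1b3 at chr3:81835926-81878633 and Gucy1a3 at chr3:81896349-81949799. Per length, Gucy1b3 was 3.82 ± 0.22 times Gucy1a3 in high fat islets and 3.26 ± 0.090 times Gucy1a3 in normal diet islets (SD, n = 3 each). Over the 5 cyclase genes (Gucy2c, Npr1, Npr2, Gucy1a3 and Gucy1b3), Gucy2c took 69.6%, 71.8% and 64.3% of the summed level per length in high fat libraries and 38.7%, 40.3% and 34.9% in normal diet libraries. These shares include the gene that was chosen for its difference and are a description.

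The kinases that cGMP switches on were not called. Prkg1, the kinase of smooth muscle, platelets and neurons, was at 17.3, 16.1 and 16.9 CPM in high fat libraries and at 15.7, 15.3 and 14.7 CPM in normal diet libraries. The libraries did not overlap, and the log2 fold change was 0.14 (SE 0.099, 95% interval -0.08 to 0.36, edgeR adjusted p = 0.36). Prkg2, the membrane-anchored kinase that acts after guanylate cyclase C in intestinal cells, was at 2.60, 1.83 and 3.59 CPM in high fat libraries and at 2.13, 2.18 and 2.04 CPM in normal diet libraries. High fat library 2 was its lowest library and high fat library 3 its highest, so that the diets overlapped (log2 fold change 0.34, SE 0.23, 95% interval -0.18 to 0.87, edgeR adjusted p = 0.34). Prkg1 lies at chr19:30638999-31839523 and Prkg2 at chr5:99358651-99466098, both on the minus strand of mm9.

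Prkg1 was 1.78 ± 0.54 times Prkg2 per length in high fat islets and 1.91 ± 0.045 times in normal diet islets (SD, n = 3 each). Of the 19270 exonic bases of Prkg1, 56.0% are shared with a single-exon locus on the opposite strand. Over the whole table, each of the 548 loci that are covered wholly by loci of the opposite strand had 0 reads, against 16.6% of the 33111 loci that share no base, so that reads in shared bases appear not to be counted to either locus. Per kb of unshared exon, Prkg1 was 4.04 ± 1.23 times Prkg2 in high fat islets and 4.33 ± 0.10 times in normal diet islets.

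Pde5a, the cGMP-specific phosphodiesterase that sildenafil inhibits, was the most abundant of the 10 genes per length and was higher in high fat islets. It was at 638, 642 and 797 CPM in high fat libraries and at 355, 510 and 460 CPM in normal diet libraries. The lowest high fat library lay above the highest normal diet library, with library 3 the highest on the high fat diet and library 1 the lowest on the normal diet. The means were 692 ± 91 CPM in high fat and 442 ± 79 CPM in normal diet islets (SD, n = 3 each), which differed by 0.65 on the log2 scale (SE 0.14, 95% interval 0.32 to 0.97; edgeR adjusted p = 0.033), or 1.57-fold. Per length, Pde5a exceeded 95.8% of tested coding loci in high fat islets and 94.1% in normal diet islets. It was 2.14 ± 0.59 times Gucy2c per length in high fat islets and 4.81 ± 1.06 times Gucy2c in normal diet islets.

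The call for Pde5a held in 7 of 15 other settings. Without normal diet library 1, the lowest, the log2 fold change was 0.49, and it was 0.71, 0.71, 0.74 and 0.66 without high fat library 1, high fat library 2, normal diet library 2 and normal diet library 3. None of these 5 fits called Pde5a, and each called at most 128 of all loci tested. Cyclic loess scaling gave 0.39 and did not call it. The Pde5a locus is at chr3:122432076-122562292 on the plus strand of mm9, with 8874 exonic bases, of which 0.62% are shared. The 250 bases before its start are shown because it is the most abundant of the 10 genes, from RefSeq on GRCm38.p6 at chr3:122728908-122729157, with a GC box in capitals.
Pde5a promoter: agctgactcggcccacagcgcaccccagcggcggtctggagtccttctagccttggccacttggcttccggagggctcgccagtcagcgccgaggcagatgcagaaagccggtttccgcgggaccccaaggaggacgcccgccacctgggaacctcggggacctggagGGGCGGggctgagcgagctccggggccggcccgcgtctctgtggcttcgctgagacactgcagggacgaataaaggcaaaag
The GC box GGGCGG, read by SP factors, begins 82 bases before the start, and 32.7% of promoters hold it on either strand. Bases G and C make up 68.4% of this promoter, 57.2% of that of Guca2a and 54.4% of that of Guca2b, against a median of 52.4% over all promoters.

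**Figure D2:**
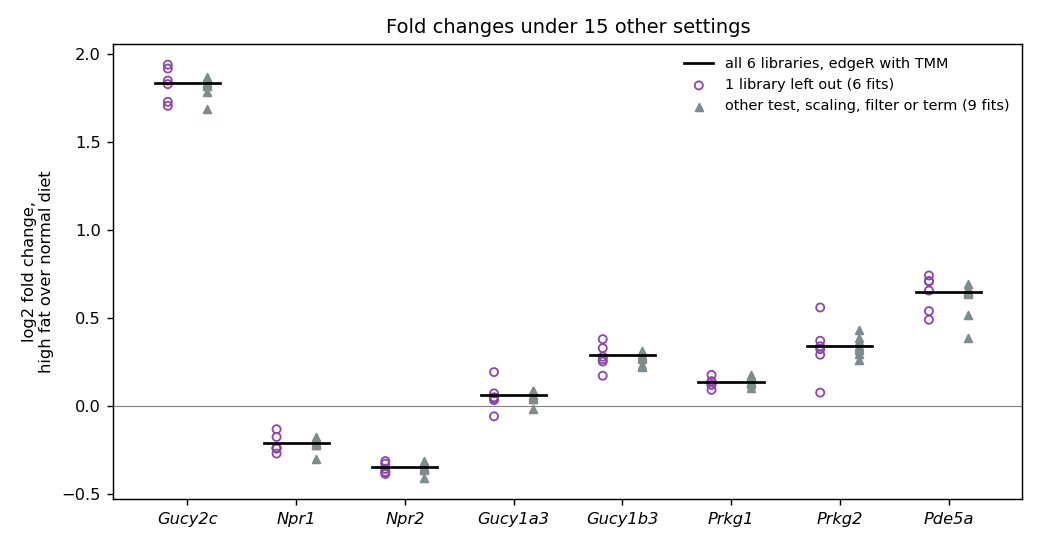
Log2 fold changes (high fat over normal diet) of the 8 genes that passed the filter on low counts, with all 6 libraries as a bar, with 1 library left out as open circles and with another test, scaling, filter or term as triangles. Gucy2c lies between 1.69 and 1.94, Pde5a between 0.39 and 0.74 and Npr2 between -0.41 and -0.31, and Gucy1a3 crosses 0.

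Ordered by level per length in high fat islets, the genes ran from Pde5a (78.0 CPM per kb) over Gucy2c (37.4), Gucy1b3 (7.26), Npr1 (5.78), Npr2 (2.03), Gucy1a3 (1.91) and Prkg1 (0.870) to Prkg2 (0.524), with Guca2a and Guca2b at 0. Of these neighbours, Npr2 and Gucy1a3 overlapped between libraries, as did the peptides at 0. In normal diet islets the order was Pde5a (49.8 CPM per kb), Gucy2c (10.5), Npr1 (6.68), Gucy1b3 (5.94), Npr2 (2.59), Gucy1a3 (1.82), Prkg1 (0.789), Prkg2 (0.414), Guca2a (0.0592) and Guca2b (0.00779). No neighbours in that order overlapped, though the last 2 rest on at most 8 reads a library. Npr1 and Gucy1b3 changed places between the diets. With unshared exon as the length, a choice made after seeing the data, Prkg1 stood at 1.98 CPM per kb in high fat and 1.79 CPM per kb in normal diet islets, and Npr2 at 2.64 and 3.36 CPM per kb. By that length Prkg1 was above Gucy1a3 in high fat islets (1.91) and below it in normal diet islets (1.82), so the order depends on the length used.

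Most genes of the wider cGMP pathway were not called. Of 61 genes listed by role, the 10 genes above included, 51 passed the filter on low counts, of which 42 were not called, and their median log2 fold change was 0.07. Without the 10 genes, 43 were tested, of which 3 were higher (Rgs2, Ide and Cngb3) and 3 lower (Nos1, Nppa and Cnga3), with a median of 0.03. Both shares were near those of all loci, 5.95% and 4.86%.

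Rgs2, a regulator of G protein signalling that the kinase of smooth muscle phosphorylates, was at 340, 597 and 281 CPM in high fat libraries and at 175, 109 and 148 CPM in normal diet libraries. It was the most abundant gene of the kinase and substrate list per length, at 135 CPM per kb in high fat and 47.9 CPM per kb in normal diet islets. Its log2 fold change was 1.5 (SE 0.27, edgeR adjusted p = 0.024), with high fat library 2 far above the other high fat libraries. The other 11 genes of that list, among them the substrate Vasp, the potassium channel Kcnma1 and the chloride channel Cftr, were not called. Slc9a3, the sodium-hydrogen exchanger that cGMP signalling inhibits in the gut, was at 0.0783 CPM in high fat and 0.184 CPM in normal diet islets and did not pass (edgeR adjusted p = 0.063).

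Of the peptide ligands and their processing enzymes, 5 of 10 genes were tested. Ide, insulin-degrading enzyme, which also cleaves natriuretic peptides, was the most abundant of them per length, at 16 CPM per kb in high fat and 11.9 CPM per kb in normal diet islets. It was higher in high fat islets, at 79.6, 83.9 and 88.2 CPM, than in normal diet islets, at 59.7, 67.4 and 59.8 CPM, with a log2 fold change of 0.43 (SE 0.087) and an edgeR adjusted p = 0.027. Nppa, which encodes atrial natriuretic peptide, was at 0.0883, 0.0518 and 0.0925 CPM in high fat libraries and at 0.256, 0.173 and 0.238 CPM in normal diet libraries. It was lower by the test (log2 fold change -1.49, SE 0.35, edgeR adjusted p = 0.035) on 112 reads in all. Of the 4843 exonic bases of the Nppa locus, 38.8% are shared. Nos1, the neuronal nitric oxide synthase, averaged 1.01 ± 0.59 CPM in high fat and 3.34 ± 0.32 CPM in normal diet islets (SD, n = 3 each), and the 5 other tested genes of the soluble cyclase and nitric oxide synthase list were not called.

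Among 16 genes listed for phosphodiesterases that act on cGMP and for their subunits, all tested, Pde5a was the called gene. The median log2 fold change was 0.14. Pde3b, a phosphodiesterase that cGMP inhibits and that insulin activates in fat and liver, was the most abundant of the list over both diets, at 75.1 CPM per kb in high fat and 63.5 CPM per kb in normal diet islets. Pde5a, at 78.0 CPM per kb, was above it in high fat islets, and at 49.8 CPM per kb below it in normal diet islets. The libraries of Pde3b did not overlap between the diets, and the difference did not pass the test (log2 fold change 0.24, edgeR adjusted p = 0.099). The subunits of the cone photoreceptor channel that cGMP opens differed in opposite directions. Cngb3 was at 4.94, 5.64 and 5.21 CPM in high fat libraries and at 1.93, 2.48 and 1.90 CPM in normal diet libraries (a log2 fold change 1.32, SE 0.16, edgeR adjusted p = 0.011). Cnga3 was at 0.132, 0.321 and 0.301 CPM in high fat libraries and at 0.752, 0.821 and 0.687 CPM in normal diet libraries (log2 fold change -1.58, SE 0.31, edgeR adjusted p = 0.027). The exporter Abcc5, which carries cGMP out of cells, was the most abundant gene of this list per length, at 11.3 CPM per kb in high fat and 12 CPM per kb in normal diet islets, and was not called.

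Leaving out a library or changing the test ended these 6 calls in some settings, and the fits without normal diet library 1, 2 or 3 called none of the 6. Cngb3 passed in 11 of 15 other settings, Nos1 in 8, Rgs2, Nppa and Cnga3 in 7 each, and Ide in 6. No log2 fold change of the 6 turned its sign, with ranges of 1.22 to 1.44 for Cngb3, 1.12 to 1.71 for Rgs2, 0.29 to 0.47 for Ide, -2.22 to -1.37 for Nos1, -1.66 to -0.87 for Nppa and -1.89 to -1.27 for Cnga3.

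**Figure D3:**
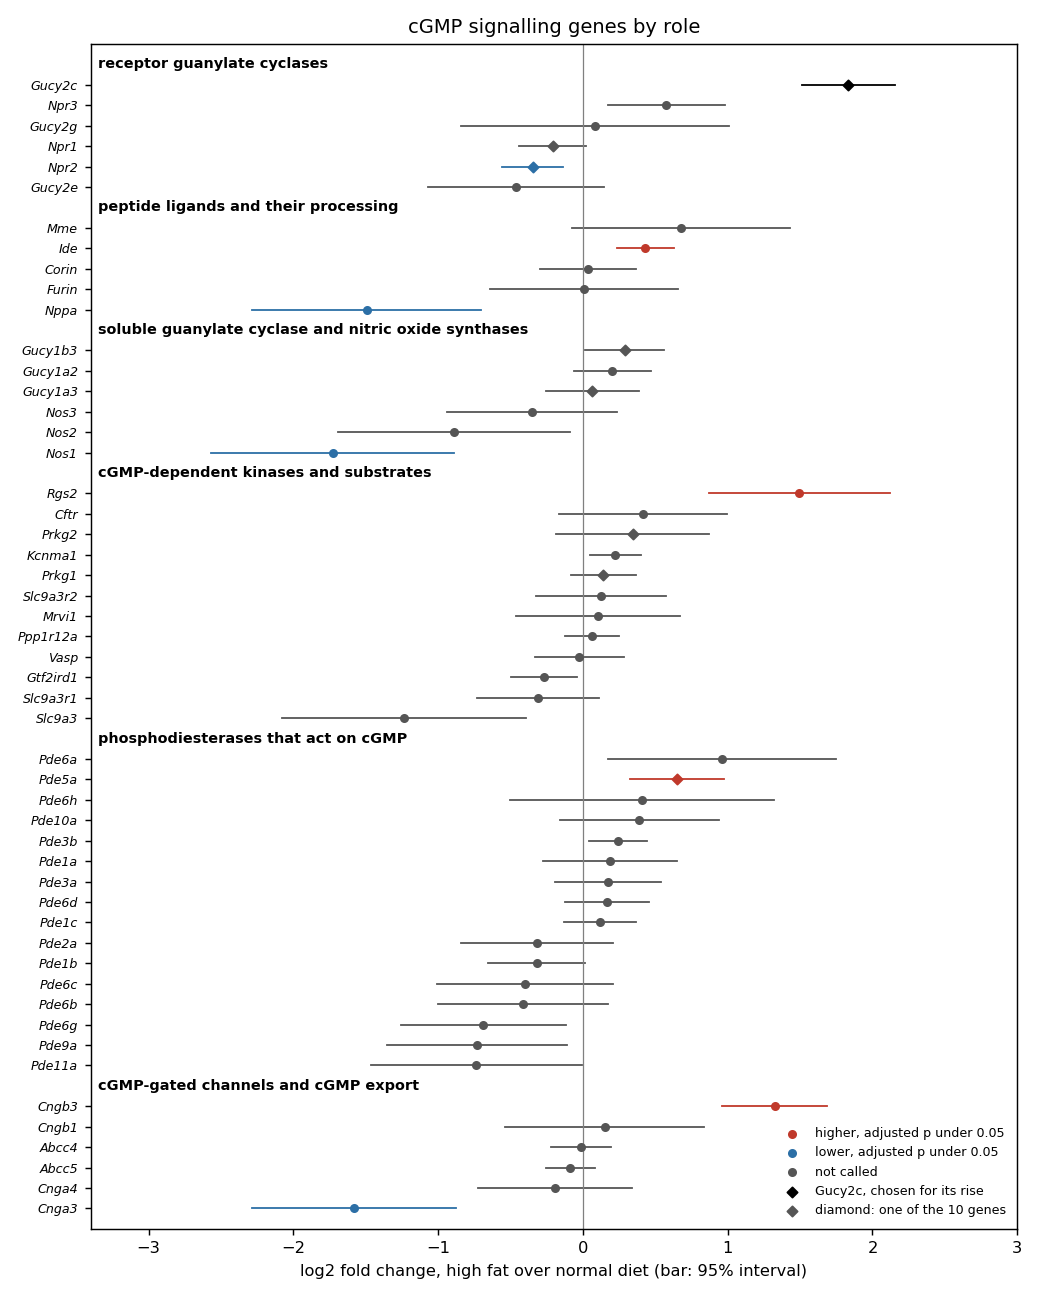
Log2 fold changes (high fat over normal diet, x axis) of the 51 tested genes of the cGMP pathway by role, with 95% intervals as bars, the 10 genes as diamonds, genes past an edgeR adjusted p of 0.05 in colour, and Gucy2c in black as the gene chosen for its difference. Besides Gucy2c, 4 genes lie to the right past the threshold and 4 to the left.

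The named coding loci whose 6 log2 values, each taken relative to the gene's own mean, were most like those of Gucy2c were Chil6, Dapl1, Rasd2, Svopl and Gc. Their root mean square differences from Gucy2c were 0.141, 0.149, 0.183, 0.198 and 0.212 on the log2 scale, over the 6 libraries and out of 11582 loci compared. Chil6 encodes a chitinase-like protein, Rasd2 a small GTPase, Svopl a transporter-like protein and Gc the vitamin D-binding protein. Like Gucy2c, each of the 5 was highest in high fat library 2 and lowest among the high fat libraries in library 3. The 5 were chosen by closeness in these same 6 values, so that the shared order is part of the choice. Of the other 7 tested genes of the 10, Pde5a came closest to Gucy2c at 0.656 and Npr2 was farthest at 1.1.

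**Figure D4:**
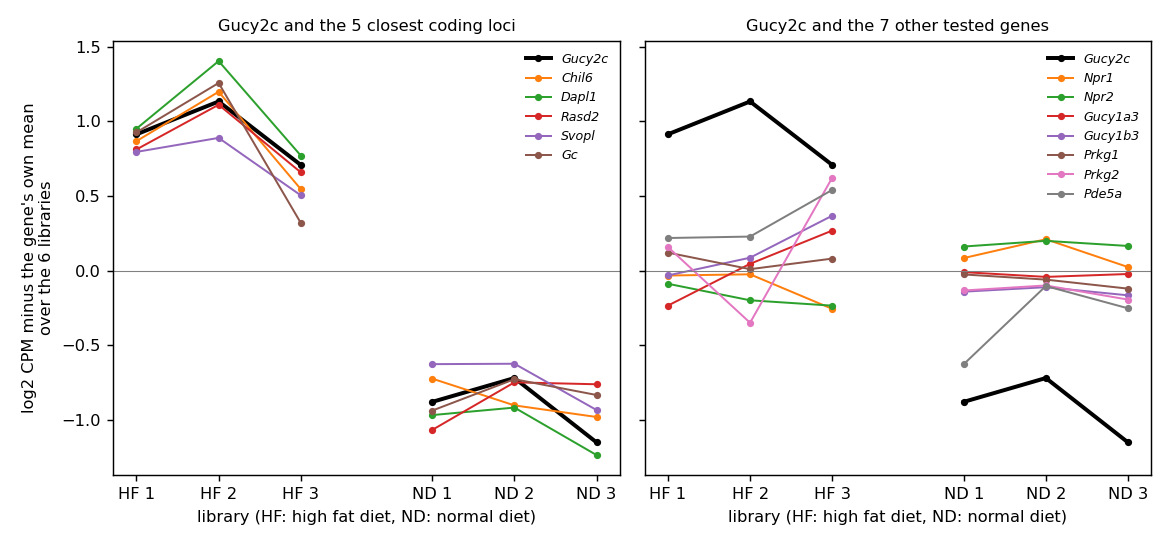
Log2 CPM of each gene minus its own mean (y axis) in the 3 high fat and the 3 normal diet libraries, for Gucy2c with the 5 closest coding loci on the left and with the 7 other tested genes on the right. The 5 loci differ from Gucy2c by 0.141 to 0.212 (root mean square), the 7 genes by 0.656 to 1.1.

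Islet hormone genes, which mark the labelled tissue, were abundant in every library. The beta-cell marker Iapp, which encodes islet amyloid polypeptide, averaged 58831 CPM in high fat and 35729 CPM in normal diet islets, and the alpha-cell hormone gene Gcg averaged 18928 and 23097 CPM. The summed beta-cell markers ran from 80229 to 100201 CPM in high fat and from 55556 to 65421 CPM in normal diet libraries, with 2 of 5 tested markers higher, while Slc2a2 and Nkx6-1, whose exons are almost wholly shared, were at 0. The summed alpha-cell markers ran from 17915 to 21649 CPM in high fat and from 22895 to 25279 CPM in normal diet libraries, with 3 of 5 lower (Irx1, Irx2 and Slc7a2). Over all loci tested, 5.95% were higher and 4.86% lower. Most of the beta-cell sum was Iapp, and the beta-cell markers Ins1, Ins2 and Ucn3 were not called (edgeR adjusted p = 0.12, 0.61 and 0.53). Ins1 and Ins2 share 61.6% and 18.4% of their exonic bases. Reads in such bases appear not to be counted, so the levels of both, and the sum, may be too low. Between the diets, Gucy2c moved with the beta-cell sum and against the alpha-cell sum. Within the normal diet, Gucy2c and both sums were highest in library 2, and both sums were lowest in library 1 but Gucy2c in library 3. Within the high fat diet, Gucy2c and the beta-cell sum were highest in library 2 and lowest in library 3. There the alpha-cell sum was highest in library 3. The part of either sum in the values of Gucy2c was not tested.

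Markers of intestinal epithelium, the tissue best known for Gucy2c, were low apart from Vil1, which encodes the actin-binding protein villin. Vil1 averaged 207 CPM in high fat and 157 CPM in normal diet islets and was higher by the test (log2 fold change 0.40, SE 0.095, edgeR adjusted p = 0.037). The defining genes Cdx1 and Alpi were at 0 in all libraries, Cdx2, Fabp2, Muc2 and Sis were under 0.1 CPM, and 4 of 10 markers passed the filter. The list summed to 185 to 226 CPM in high fat and 154 to 169 CPM in normal diet libraries, nearly all of it Vil1.

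Of 10 markers of pericytes and smooth muscle, cells in which Pde5a and Prkg1 are known to act, 3 were higher (Acta2, Tagln and Rgs5), 0 lower and 7 not called. The median log2 fold change of the 10 was 0.05, and Cnn1, Notch3, Cspg4, Kcnj8 and Pdgfrb, at -0.58, -0.32, -0.25, -0.15 and -0.0082, had values below 0. The list summed to 410 to 487 CPM in high fat and 298 to 309 CPM in normal diet libraries, most of it Rgs5, at 380 and 235 CPM. Its part in the higher Pde5a was not tested. The 16 acinar markers summed to 5752 to 12287 CPM in high fat and 3941 to 7491 CPM in normal diet libraries. Cela2a was the most abundant of them per length, and 1 of the 15 tested was higher (Try5). Schwann cell markers had 3 of 6 lower (Sox10, Ngfr and Gfap), and 1 of 4 tested macrophage markers was lower (Csf1r), the most abundant being C1qa. Beside these counts, 5.95% of all loci tested were higher and 4.86% lower. No tested marker of endothelium (7, led by Plvap), fibroblasts (6, led by Dcn), ducts (4, led by Spp1) or delta and PP cells (3, led by Ppy) was called. Leading markers are those most abundant per length.

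**Figure D5:**
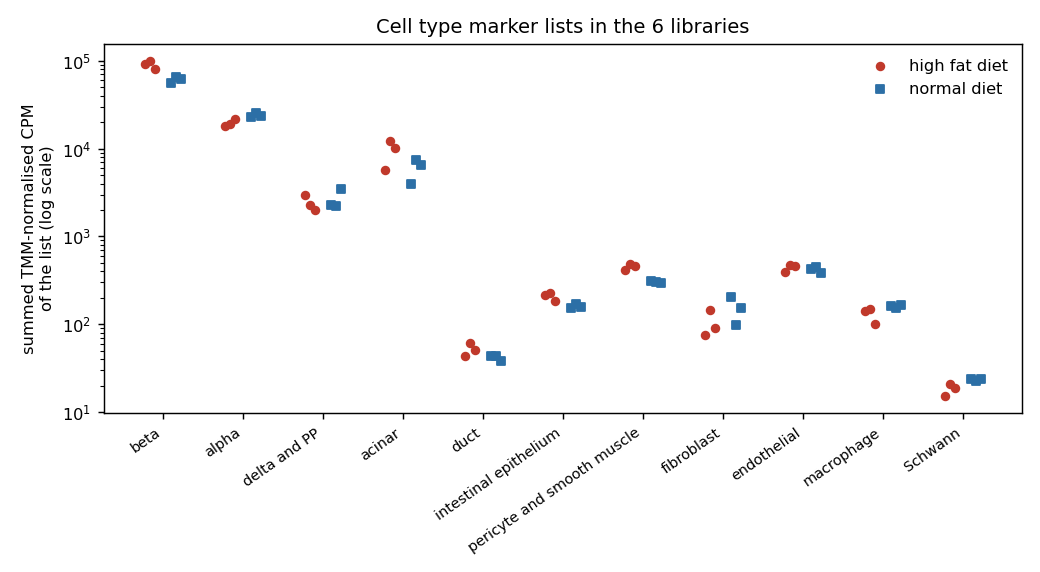
Summed TMM-normalised CPM (log scale) of 11 cell type marker lists in each high fat library (circles) and each normal diet library (squares). The diets stand apart for beta-cell, alpha-cell, intestinal, pericyte and smooth muscle, macrophage and Schwann cell markers and overlap for the others. Taken singly, 39.2% of all loci tested stand apart.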

How the data were processed

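Per the labels' protocols, ribosomal RNA was depleted from total RNA and stranded paired-end libraries were made without poly(A) selection. Per the submitters' processing notes, edgeR, HTSeq 0.5.4p3, Cufflinks 2.1.1 and TopHat2 2.0.8 were used on build mm9, with no settings given in the sources used here. The authors deposited raw read counts per locus, the assembled transcripts in mm9, and a table of scaled values, a signal that equals the count times a constant per library (0.906 to 1.10; 100% whole within 0.001 reads after division). The deposited files carry no gene symbols. Loci were named by matching ordered exon and intron lengths on the same chromosome and strand to GENCODE M21, which named 18220 loci by the full chain, 225 by part of it and 1500 with 2 exons. All 10 genes and all 61 pathway genes were matched, and named loci held 92.8% of counts. The names are inferences from structure.

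Counts were tested in R 4.3.3 with edgeR 4.0.16 (filterByExpr, TMM, quasi-likelihood test for diet over all 6 libraries, two-sided, Benjamini-Hochberg adjustment, threshold 0.05). Common dispersion was 0.0287. Each SE was derived from the F statistic, as the size of the log2 difference over its square root. The procedure was tested on simulated data. Alternatives used limma 3.58.1 and DESeq2 1.42.0. Reads in bases shared by loci of opposite strands appear uncounted, so that the count appears not to have separated the strands. The strand setting used is not given. The 95% intervals come from the same fit and include the spread between libraries, while floors for counts of 0 cover counting error only.

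The 10 genes, the lists and the tests were chosen with earlier results of these data known. Named are the 10 genes, and pathway genes past the threshold (up to 10 by adjusted p) with the most abundant gene per length of each list. Also named are the 5 coding loci most like Gucy2c and loci within 50 kb of it. Last comes the most abundant marker per length of each of 11 cell type lists. An item that this rule takes is not reported here. Other markers named were chosen after their values were seen. The pathway genes Npr3, Slc9a3, Vasp, Kcnma1 and Cftr were also named outside that rule, with their values known. Promoters came from RefSeq (GRCm38.p6) and matched 8 of the 10 genes.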

Additional observations from a re-analysis of the deposited data

How the results depend on the processing

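Of all loci, the 9 genes other than Gucy2c and the pathway list, 2591, 2 and 9 were called. Counts of the list include Gucy2c, the gene chosen for its difference, wherever it passed. Without Gucy2c, 4 genes of the list were higher and 4 lower. Gucy2c was also among the 2 of the list called by cyclic loess and among the 2 called with a replicate block. RLE scaling called 1 of the 9 genes, as did the exact test, no low-count filter and limma on the scaled values. The scaled values, which keep differences in depth, called 1344 loci (399 higher, 945 lower) and DESeq2 4114 (2276 and 1838), against 1426 and 1165. Cyclic loess called 481 loci, 0 of the 9 genes and 2 of the list. A replicate block called 74 loci, 0 of the 9 genes and 2 of the list. Libraries of the same number did not deviate together (correlations -0.07, 0.07 and -0.01), so the block pairs them by number alone. With the acinar marker level as a covariate edgeR called 0, 0 and 0, against 4915 loci, 2 of the 9 genes and 12 of the list at an unadjusted p under 0.05. Leaving out 1 library gave 0 to 5035 loci, 0 to 2 of the 9 genes and 0 to 10 of the list. Each normal diet library, left out, gave 0 loci by edgeR, against 5500, 6286 and 6294 at an unadjusted p under 0.05 without libraries 1, 2 and 3. The fits that left out a high fat library called 128 loci (library 1), 86 (library 2) and 5035 (library 3). The log2 fold change of Gucy1a3 reversed to -0.019 with the acinar covariate and to -0.057 without high fat library 3, and ran up to 0.19 with another library left out; the cause was not tested. No other gene of the 8 tested changed direction in 15 settings. Without loci that share bases, 6 of the list were called. The called loci that this leaves out are Pde5a, Npr2 and Nppa, which share 0.62%, 23.0% and 38.8% of their exonic bases. Lengths from the longest transcript moved Gucy1a3 to 2.65 and 2.53 CPM per kb and Prkg1 to 1.5 and 1.36 in high fat and normal diet islets. By that length Gucy1a3 was above Npr2 in high fat islets (2.05 CPM per kb) and below it in normal diet islets (2.61 CPM per kb). Depth limits Guca2a and Guca2b, at 13 and 2 reads.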
